A study of Mus musculus with 12 samples.

Results

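The genotype by ischemia-reperfusion (IR) interaction asks of each gene whether kidneys labelled Tet2-/- responded to IR differently from WT kidneys. It is the log2 fold change of IR against baseline in the libraries labelled Tet2-/- minus the same log2 fold change in WT libraries. A positive value means a larger rise or a smaller fall in the libraries labelled Tet2-/-, and a negative value means the reverse. All 12 of the 12 RNA-seq libraries of the series enter it. Each library came from a whole kidney of a male mouse 6 weeks old, of strain C57BL/6 by the labels (C57BL/6J for the breeders in the study's methods), and the mice fell into 4 groups of 3: WT baseline, Tet2-/- baseline, WT IR and Tet2-/- IR. By the study's methods the Tet2-/- mice were germline knockouts bred from heterozygous parents, the right renal pedicle was clamped for 60 min, the left kidney was removed, and the clamped kidney was taken 24 h later. Baseline mice had no operation, so the IR effect in both genotypes also holds surgery and removal of a kidney. Of 24421 gene symbols, each represented by the transcript with the most counts, 16741 passed edgeR's filter for low counts and were tested. The interaction was called at an adjusted p under 0.05.

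Tet2 is a dioxygenase that oxidises 5-methylcytosine in DNA, a step towards loss of the methyl mark, and it is best known from blood cells, where its loss alters the inflammatory genes of macrophages. In the kidney, ischemia strikes the proximal tubule hardest, because this segment lives on mitochondrial oxidation and has little glycolytic reserve. Injured proximal tubule cells shed their brush border, lose transporters and metabolic enzymes, and switch on genes such as Havcr1 (Kim1) and Lcn2 (Ngal), while neutrophils and then monocytes enter the tissue. In these libraries of whole tissue, fewer cells of a type and less RNA per cell cannot be told apart.

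Total counts ran from 51007366 to 107969888 per library. The Tet2 transcript did not check the labels at baseline. Its level (FPKM) was 9.15, 6.25 and 7.33 in WT baseline replicates 1 to 3 and 9.25, 16.6 and 10.3 in Tet2-/- baseline replicates 1 to 3, so the genotypes are given by label throughout. The kidney markers Slc34a1, Lrp2, Umod, Slc12a1 and Aqp2 were detected in all 12 libraries. Some libraries stood apart. WT baseline replicates 2 and 3 and Tet2-/- IR replicate 3 carried fat cell transcripts: Adipoq, the adipocyte hormone adiponectin, was at 3.01, 15.6 and 10.0 FPKM there and at most 0.273 FPKM in the other 9 libraries. Ucp1, the uncoupling protein of brown fat, was at 4.32, 4.49 and 0.705 FPKM in these 3 libraries and at most 0.082 FPKM elsewhere. The sum of 11 urothelial genes, a list added after the data were seen, ran from 45.4 to 138 FPKM in WT baseline, from 7.03 to 40.6 in Tet2-/- baseline, from 23.9 to 107 in WT IR and from 33.7 to 48.1 in Tet2-/- IR libraries. WT IR replicate 1 had the lowest Lcn2 of the IR libraries. Counts and named calls without these libraries are given after the counts of all genes.

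**Figure D1:**
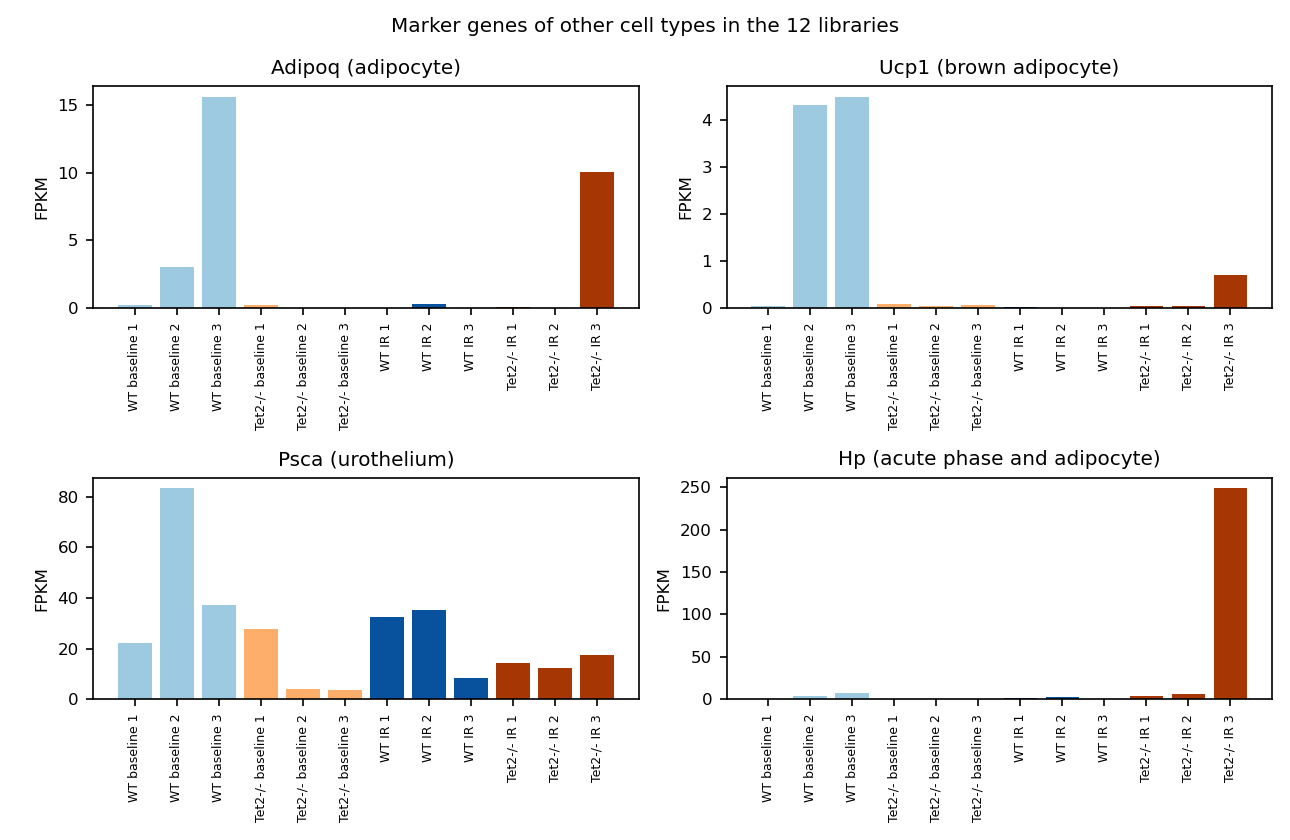
FPKM of 4 marker genes in each of the 12 libraries (bars, coloured by group). Adipoq and Ucp1 stood out in WT baseline replicates 2 and 3 and Tet2-/- IR replicate 3, Psca was highest in WT baseline replicate 2 at 83.3 FPKM, and Hp reached 249 FPKM in Tet2-/- IR replicate 3 alone.

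More genes passed the test of IR against baseline in kidneys labelled Tet2-/- than in WT kidneys. In WT kidneys 659 genes rose (3.94% of genes tested) and 406 fell (2.43%), while in kidneys labelled Tet2-/- 4300 rose (25.7%) and 3433 fell (20.5%), each at an adjusted p under 0.05 in edgeR. The WT calls depended on single libraries: 193 rose and 142 fell without WT baseline replicate 1, 367 and 160 without WT baseline replicate 2, 196 and 139 without WT IR replicate 2, and 225 and 103 without WT IR replicate 3. The count that fell also moved by over 1.5 times without Tet2-/- baseline replicate 2 or 3, to 252 without replicate 3. Without both WT baseline replicates 2 and 3, 11 rose and 19 fell, and with replicates paired within a genotype 779 rose and 862 fell. In kidneys labelled Tet2-/- the counts over the 12 fits that left out a library ran from 3018 to 4372 for genes that rose and from 2850 to 3745 for genes that fell. The interaction itself passed for 634 genes in the positive direction (3.79%) and for 902 in the negative direction (5.39%), so 58.7% of the 1536 called genes were lower. The median interaction was 1.55 among the positive and -1.38 among the negative calls, against 0.10 over all genes tested. Over the 16741 genes the IR effects in the 2 genotypes had a Pearson r of 0.61 and a Spearman rho of 0.585, as a description across genes, which are not independent replicates. The SD of the IR effects was 0.814 in WT and 1.37 in kidneys labelled Tet2-/-.

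**Figure D2:**
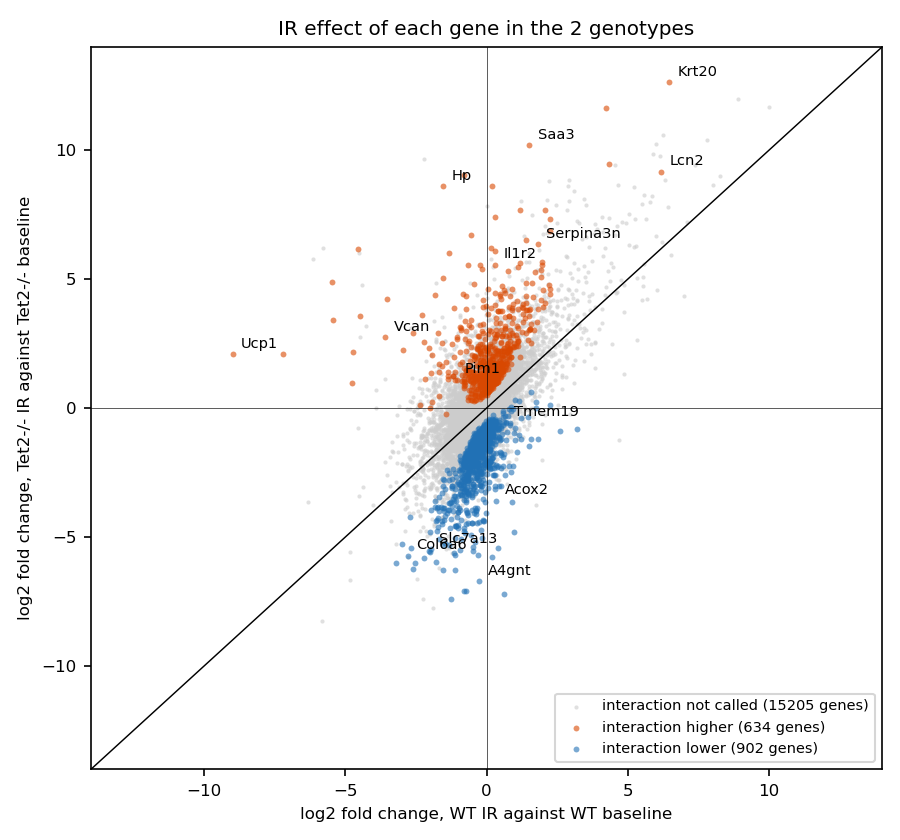
Log2 fold change of IR against baseline in WT kidneys (x axis) and in kidneys labelled Tet2-/- (y axis), a point per gene tested, with the line of equal response. The 634 genes with a positive interaction lie above the line and the 902 with a negative interaction below it, mostly near 0 on the WT axis.

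Most of the called genes changed past the threshold in 1 genotype. Of the 634 genes with a positive interaction, 540 (85.2%) rose in kidneys labelled Tet2-/- without passing in WT, and 64 (10.1%) rose in both. Of the 902 with a negative interaction, 766 (84.9%) fell in kidneys labelled Tet2-/- without passing in WT, and 108 (12%) fell in both. Opposite directions that passed in both genotypes were seen for 3 genes with a positive and 1 with a negative interaction. A gene that passed in 1 genotype often did not differ past the threshold between them: of 3716 genes that rose in kidneys labelled Tet2-/- and did not pass in WT, the interaction was called for 540, and of 3099 that fell, for 766. Which genes did not pass in WT rests on the WT calls, which ran from 193 to 831 genes that rose and from 103 to 543 that fell with 1 library left out. The genotype difference after IR was called for 453 of the positive and 877 of the negative genes. At baseline it was called for 1 of the 634 and for 0 of the 902, and over all genes tested edgeR called 3 at baseline while 1781 had an unadjusted p under 0.05. The baseline term nevertheless entered the positive calls: for 156 of them (24.6%) the baseline difference was opposite in sign and at least 0.5 times the size of the interaction, against 10 (1.11%) of the negative calls. A group had at most 3 counts in each of its libraries for 22 positive and 11 negative genes, whose fitted values depend on the prior count.

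Dropping Tet2-/- baseline replicate 3 left 147 positive genes and dropping WT IR replicate 2 gave 980, the extremes over 12 fits that each dropped a library. The negative count ran from 485, on dropping WT IR replicate 1, to 1064, on dropping WT IR replicate 2, and 130 positive and 449 negative genes were called in each of these 12 fits. Without both WT baseline libraries that carried fat cell transcripts, 2 genes were positive and 8 negative, and of the 116 named genes called, 7 kept their call (Col6a6, Ctgf, Igfals, Pecr, S100a8, Slc6a20b and Thnsl2). Without these and Tet2-/- IR replicate 3, Col6a6 and Igfals kept theirs, although Igfals lost its call in 4 of the 12 fits that dropped a single library. These fits leave the WT baseline group with 1 library. With 1 library dropped, 63 of the 116 kept their call in each of the 12 fits. Those that did not included Ccl6, Chil3 and Abcc3 (lost in 1 fit), Cyp7b1 (2), Dnaja1 (4), Sele (6), S100a9 (7), Ly6c1, Serpina6 and Krt5 (8), Tnni2 (10), and Ccl9 and Idh2 (11). With same-numbered baseline and IR libraries of a genotype paired as a replicate block, 1024 genes were positive and 1077 negative. The split between directions depended on the scale: 38.3% of calls were negative with library sizes alone, which moved the median of all genes by 0.14, and 35.8% with limma on log2(FPKM + 1).

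Tubular injury and dedifferentiation markers were the first group. Of 24 tested, 9 had a positive interaction and 0 a negative one, where 3.79% and 5.39% of all genes tested did. The fitted value was above 0 for all 24, against 9514 of the 16741 genes tested, with a median of 1.94. In WT kidneys 13 of them rose and in kidneys labelled Tet2-/- 22 did, beside 3.94% and 25.7% of all genes tested. The median IR effect was 1.67 and 3.98. Krt20, a keratin of the surface urothelium that injured tubules also switch on, was at 0.247, 1.37 and 1.01 FPKM in WT baseline and 0.038, 0.067 and 0.028 in Tet2-/- baseline libraries, and at 26.6, 56.9 and 151 in WT IR and 399, 261 and 436 in Tet2-/- IR libraries (log2 interaction 6.18, SE 1.09, edgeR adjusted p = 0.00888). All 3 Tet2-/- IR libraries lay above the WT IR libraries, and the Tet2-/- baseline libraries lay below the WT baseline libraries. In FPKM, 21.5% of all genes tested had all 3 Tet2-/- IR libraries above the WT IR libraries, and 14.4% had all 3 below. Lcn2, an iron-trapping protein released by injured tubules and neutrophils, went from 2.47, 4.24 and 2.60 to 74.2, 476 and 158 FPKM in WT and from 2.39, 3.33 and 1.19 to 1923, 1849 and 908 FPKM in kidneys labelled Tet2-/- (log2 interaction 2.99, SE 0.83, edgeR adjusted p = 0.0463). The baseline ranges of Lcn2 overlapped and the IR ranges did not. Its call was lost in 10 of the 12 fits that left out a library, with the interaction between 2.56 and 3.94 and the adjusted p up to 0.108 over these fits. Cd44, a hyaluronan receptor of injured and migrating cells, was at 0.403, 0.99 and 0.889 FPKM in WT IR and 3.43, 6.65 and 3.68 FPKM in Tet2-/- IR libraries (log2 interaction 2.68, SE 0.54, edgeR adjusted p = 0.0142). Krt19, S100a6, Sprr2f, Sox4, Plaur and Krt18 were the other called members. Krt19, Krt20 and S100a6 also mark urothelium, for which 0 of 11 genes were called at baseline while the median baseline difference was -2.46, and the part of urothelial RNA in their interaction was not tested. Havcr1, the receptor Kim1 that lets tubule cells engulf debris, rose in both genotypes, by 5.29 on the log2 scale in WT and 6.29 in kidneys labelled Tet2-/-. Its interaction of 1.01 was not called (SE 1.02, edgeR adjusted p = 0.559), and its IR ranges overlapped, at 214, 559 and 670.5 FPKM in WT against 652, 867 and 1432 FPKM in libraries labelled Tet2-/-. The count of called injury markers was 4 without WT baseline replicate 2 or without Tet2-/- baseline replicate 2 or 3, 5 without WT IR replicate 3 or Tet2-/- IR replicate 1, and 0 without both WT baseline replicates 2 and 3.

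Neutrophil genes had the highest median interaction among the lists. Of 22 tested, 7 were positive (Il1r2, S100a8, Cxcr2, Fpr2, S100a9, Lcn2 and Mmp9) and 0 negative. The median interaction was 3.32, or 3.20 without the 6 members that had at most 3 counts in every library of a group, and the median IR effect was 1.11 in WT and 5.40 in kidneys labelled Tet2-/-. S100a8 and S100a9 encode the subunits of calprotectin, the main cytosolic protein of neutrophils. S100a8 was at 0.708, 0.287 and 0.814 FPKM in WT baseline, 0.776, 0.712 and 0.576 in Tet2-/- baseline, 1.77, 3.29 and 2.32 in WT IR and 47.2, 46.6 and 27.4 in Tet2-/- IR libraries. The Tet2-/- IR libraries had a mean of 40.4 ± 11.3 (SD, n = 3) FPKM against 2.46 ± 0.773 (SD, n = 3) in WT IR, and the log2 interaction was 3.70 (SE 0.53, edgeR adjusted p = 0.00409). S100a9 followed the same order, with 1.87, 4.99 and 3.21 FPKM in WT IR and 65, 59.2 and 33.1 FPKM in Tet2-/- IR libraries (log2 interaction 3.41, SE 0.82, edgeR adjusted p = 0.0289). Its call was lost in 7 of the 12 fits that left out a library, and with the replicate block (3.30, edgeR adjusted p = 0.0552). Il1r2, the decoy receptor of interleukin 1, was between 0.03 and 0.182 FPKM in the other 9 libraries and at 3.42, 3.15 and 3.04 FPKM in Tet2-/- IR libraries (log2 interaction 5.25, SE 0.64, edgeR adjusted p = 0.00381). Cxcr2, the receptor that draws neutrophils to CXC chemokines, had an interaction of 4.43 (SE 0.79, edgeR adjusted p = 0.00913) and Fpr2, a formyl peptide receptor, one of 3.88 (SE 0.80, edgeR adjusted p = 0.0158). In Tet2-/- IR libraries the summed level of the 30 neutrophil genes in the files ran from 1001 to 2077 FPKM, against 81.7 to 489 in WT IR and 6.35 to 10.2 in the baseline libraries. Lcn2 made up 90.7% to 97.4% of the sum in the IR libraries. Without it the sum was 154, 155 and 93.7 FPKM in Tet2-/- IR libraries and 7.49, 12.7 and 9.11 FPKM in WT IR libraries, and the groups did not overlap. The list's count was 4 without any 1 of WT baseline replicates 1 and 3, Tet2-/- baseline replicates 1 and 3, WT IR replicate 1 and Tet2-/- IR replicate 1, and it was 1 without both WT baseline replicates 2 and 3.

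Of 27 macrophage and monocyte genes tested, 5 were positive and 0 negative. Their median interaction was 1.38, and their median IR effect was -0.23 in WT and 1.16 in kidneys labelled Tet2-/-. Chil3, a marker of alternatively activated macrophages, was at 0.179, 0.499 and 0.2 FPKM in WT IR and 9.47, 37.1 and 5.37 FPKM in Tet2-/- IR libraries (log2 interaction 5.61, SE 1.16, edgeR adjusted p = 0.0156). Tet2-/- IR replicate 2 was the highest library. Cd14, the co-receptor that presents lipopolysaccharide to Toll-like receptor 4, was at 4.89, 15.1 and 5.90 FPKM in WT IR and 50.9, 31.9 and 31.9 FPKM in Tet2-/- IR libraries, and rose in both genotypes (log2 interaction 2.35, SE 0.55, edgeR adjusted p = 0.0270, lost in 5 of the 12 fits that left out a library). Ly6c1, which endothelium also expresses, and F13a1 were also called. Itgam, the integrin chain CD11b shared by neutrophils and macrophages, had 2.72 (SE 0.84, edgeR adjusted p = 0.0655) and did not pass, though it did with the replicate block (2.65, edgeR adjusted p = 0.0100). None of the 5 calls held in all 12 fits that left out a library. The count was 1 without WT baseline replicate 1, 2 without WT baseline replicate 3, Tet2-/- baseline replicate 1 or 3, WT IR replicate 3 or Tet2-/- IR replicate 1, 3 without WT baseline replicate 2 or Tet2-/- IR replicate 2, and 0 without both WT baseline replicates 2 and 3. The 21 lymphocyte genes had 0 calls and a median interaction of 0.06, and of these Lck, a kinase of T cells, had the smallest p, with an interaction of 0.70 (edgeR adjusted p = 0.325).

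**Figure D3:**
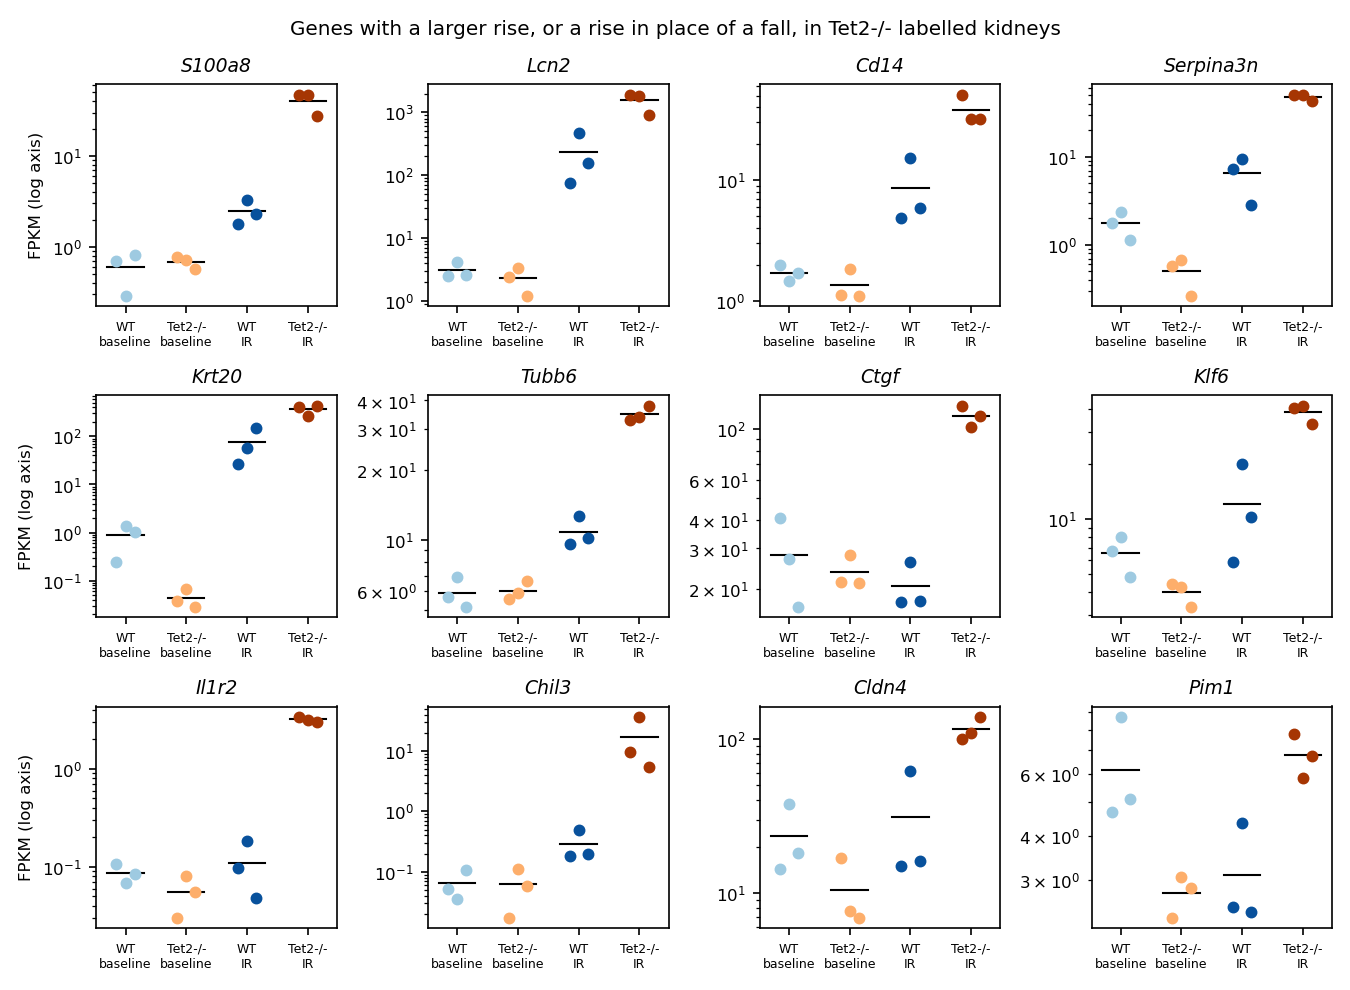
FPKM on a log axis in each library (points) and the group mean (line) for 12 genes with a positive interaction. For S100a8, Lcn2, Cd14, Serpina3n, Krt20, Tubb6, Ctgf, Klf6, Il1r2, Chil3, Cldn4 and Pim1 the 3 Tet2-/- IR libraries lie above the 3 WT IR libraries. Of all genes tested, 21.5% did so.

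Of 45 cytokine and chemokine genes tested, 2 were positive (Ccl6 and Ccl9) and 2 negative (Ccl28 and Cxcl12), near the shares over all genes of 3.79% and 5.39%. Their median interaction was 0.95. Ccl6, a chemokine of myeloid cells, was at 1.34, 1.05 and 0.765 FPKM in WT baseline and 0.719, 1.18 and 0.806 in Tet2-/- baseline libraries. After IR it was at 0.976, 0.992 and 0.298 FPKM in WT and 4.44, 20.1 and 4.49 in libraries labelled Tet2-/- (log2 interaction 3.70, SE 0.80, edgeR adjusted p = 0.0194). Cxcl12, the chemokine that retains leukocytes in tissue, went the other way, from 28.6, 41.8 and 34.3 FPKM at baseline to 6.22, 8.15 and 1.82 after IR in kidneys labelled Tet2-/-, against 54.5, 32.2 and 41.3 and 46.7, 22 and 27 in WT (log2 interaction -2.46, SE 0.61, edgeR adjusted p = 0.0321), a call lost in 7 of the 12 fits that left out a library. Other cytokines that the study names did not pass as interactions. Il1b had 2.23 (SE 0.86, edgeR adjusted p = 0.122), Tnf had 1.72 (SE 0.99, edgeR adjusted p = 0.289), Cxcl2 had 1.74 (SE 0.91, edgeR adjusted p = 0.239) and Ccl2 had 2.18 (SE 0.96, edgeR adjusted p = 0.168). With the replicate block Il1b passed (2.16, edgeR adjusted p = 0.0473). Il6 was at 0 counts in every WT baseline library, so no interaction is given for it. Its FPKM was 0.024, 0.032 and 0.009 in Tet2-/- baseline, 0.013, 0.046 and 0.101 in WT IR and 2.36, 1.17 and 0.607 in Tet2-/- IR libraries. Of 12 genes the study names from the injured kidneys, 5 were positive and 0 negative, with a median of 2.29. The study chose these on the same samples, so their direction is no independent evidence. Their count was 1 without Tet2-/- baseline replicate 3 or without both WT baseline replicates 2 and 3, 2 without WT baseline replicate 1, Tet2-/- baseline replicate 1, WT IR replicate 3 or Tet2-/- IR replicate 1, and 3 without WT baseline replicate 3 or WT IR replicate 1, and S100a8 alone held in each fit that left out a library.

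Among IL-6 and STAT3 response and acute phase genes 6 of 30 were positive (Saa3, Pim1, Il6ra, Hp, Orm1 and Socs1) and 0 negative, with a median of 1.35, or 1.14 without 5 members that had at most 3 counts in every library of a group. Saa3, an acute phase apolipoprotein made outside the liver, was at 0.098, 0.106 and 0.092 FPKM in WT baseline and 0.219, 0.242 and 0.4 in WT IR libraries. In libraries labelled Tet2-/- it had at most 1 count at baseline and 10.3, 13.3 and 11.2 FPKM after IR, at least 170.567-fold higher against a floor of 3 counts per library. Serpina3n, a protease inhibitor of the acute phase response, was at 7.38, 9.39 and 2.86 FPKM in WT IR and 50.6, 51.1 and 43.1 in Tet2-/- IR libraries, from 1.77, 2.38 and 1.15 and 0.578, 0.674 and 0.261 at baseline (log2 interaction 4.55, SE 0.58, edgeR adjusted p = 0.00381). Its baseline and IR ranges did not overlap between the genotypes, in opposite directions. Pim1, a kinase induced by STAT signalling, fell in WT by 1.06 on the log2 scale and rose in kidneys labelled Tet2-/- by 1.10. Its FPKM was 4.66, 8.72 and 5.08 in WT baseline, 2.33, 3.05 and 2.84 in Tet2-/- baseline, 2.51, 4.34 and 2.42 in WT IR and 7.78, 5.84 and 6.75 in Tet2-/- IR libraries (log2 interaction 2.16, SE 0.40, edgeR adjusted p = 0.0100). Il6ra, the receptor that binds interleukin 6, had an interaction of 3.21 (SE 0.69, edgeR adjusted p = 0.0187). Hp, the haemoglobin scavenger haptoglobin, was at 3.70, 6.37 and 249 FPKM in the 3 Tet2-/- IR libraries, the last of which carried fat cell transcripts. Its interaction of 10.16 became 5.87 without that library (edgeR adjusted p = 0.0204), and the call was lost in 4 of the 12 fits that left out a library, those without Tet2-/- baseline replicate 2 or 3 or WT IR replicate 1 or 3 (edgeR adjusted p up to 0.0655). The list's count was 3 without each of these same 4 libraries and 0 without both WT baseline replicates 2 and 3. Saa3, Pim1 and Il6ra held in each fit that left out a library.

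Genes of early stress and repair were higher in part. Of 26 AP-1 and immediate early genes, 3 were positive (Ier5, Klf6 and Klf4) and 0 negative, where 3.79% and 5.39% of all genes tested were. The value was above 0 for all 26, against 9514 of the 16741 genes tested, with a median of 1.32. In WT 8 of them fell and 2 rose, where 3.94% of all genes tested rose and 2.43% fell. In kidneys labelled Tet2-/- 8 rose and 4 fell, near the 25.7% and 20.5% of all genes tested. Klf6, a zinc finger factor of early injury, was at 5.84, 20.0 and 10.3 FPKM in WT IR and 40.1, 41.5 and 32.8 in Tet2-/- IR libraries (log2 interaction 2.21, SE 0.48, edgeR adjusted p = 0.0196). With 1 library left out, Klf6 lost its call in 1 and Klf4 in 8 of the 12 fits, and Ier5 in none. Extracellular matrix and TGF-beta response genes had 4 positive and 0 negative of 29, with a median of 0.68. Ctgf, a matricellular target of TGF-beta and YAP signalling, was at 40.9, 27.1 and 16.6 FPKM in WT baseline, 21.4, 28.2 and 21.2 in Tet2-/- baseline and 17.5, 26.3 and 17.8 in WT IR libraries, ranges that overlapped, and at 126, 102 and 114 in Tet2-/- IR libraries (log2 interaction 2.59, SE 0.40, edgeR adjusted p = 0.00541). Tnc, a matrix glycoprotein of wounds, had 4.61 (SE 0.89, edgeR adjusted p = 0.0120), and Lox, which crosslinks collagen, had 2.59 (SE 0.69, edgeR adjusted p = 0.0407). The call of Lox was lost in 9 of the 12 fits that left out a library. Outside the lists, Ahnak and Tubb6 were named among genes that rose in both genotypes. Ahnak, a large scaffold protein of the cell cortex, was at 7.18, 9.50 and 7.44 FPKM in WT IR and 17, 18.4 and 16.7 in Tet2-/- IR libraries (log2 interaction 1.60, SE 0.20, edgeR adjusted p = 0.00381). Tubb6, a beta tubulin, was at 9.59, 12.6 and 10.2 and 32.9, 34.1 and 38 FPKM (log2 interaction 1.52, SE 0.22, edgeR adjusted p = 0.00395).

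Other stress lists held calls in both directions, to be read beside 3.79% positive and 5.39% negative of all genes tested. The p53 target and growth arrest list had 2 positive (Aen and Eda2r) of 24 and a median of 0.70, with calls lost in 6 and 9 of the 12 fits that left out a library. The heat shock and ER stress list had 4 negative (Hspe1, Pdia4, Herpud1 and Dnaja1) of 27 and a median of -0.06. Herpud1, a membrane protein of ER-associated degradation, fell in both genotypes, by 1.21 on the log2 scale in WT and by 2.75 in kidneys labelled Tet2-/-, with an interaction of -1.55 (SE 0.33, edgeR adjusted p = 0.0172). The hypoxia and glycolysis list had 3 positive (Hk2, Hif1a and Adm) and 1 negative member of 26, and Adm lost its call with the replicate block (1.68, edgeR adjusted p = 0.0526). With 1 library left out, Hk2 lost its call in 3 of the 12 fits and Hif1a and Adm in 9. The negative member was Vegfa, the endothelial growth factor made by tubules and podocytes, at 57.9, 49.8 and 46.9 FPKM in WT IR and 37.3, 36 and 27.1 in Tet2-/- IR libraries (log2 interaction -1.09, SE 0.20, edgeR adjusted p = 0.00937). Of 34 cell cycle genes 14 rose in WT and 15 in kidneys labelled Tet2-/-, beside 3.94% and 25.7% of all genes tested, with 1 negative interaction and a median of -0.33. The called member was Tyms, thymidylate synthase, which rose by 1.14 in WT and had 0.27 in kidneys labelled Tet2-/- (log2 interaction -0.87, SE 0.23, edgeR adjusted p = 0.0401), and its call was lost in 9 of the 12 fits that left out a library. Interferon-stimulated genes had 1 positive member of 30, Ifit2, near the 3.79% of all genes tested. Its call was lost in 5 of those 12 fits, and the list had a median of 0.54.

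Proximal tubule genes moved the other way. Of 44 transporters and enzymes tested, 19 had a negative interaction and 0 a positive one, with a median of -1.25. In WT kidneys 6 fell and in kidneys labelled Tet2-/- 32 did, beside 2.43% and 20.5% of all genes tested. The median IR effect was -0.52 and -1.68. Anpep, a brush border peptidase, was at 41.3, 41.7 and 41.6 FPKM in WT baseline, 49.1, 48.5 and 44.4 in Tet2-/- baseline and 54.8, 38 and 47.4 in WT IR libraries and at 14.9, 9.91 and 7.20 in Tet2-/- IR libraries (log2 interaction -2.48, SE 0.32, edgeR adjusted p = 0.00381). Slc7a13, an acidic amino acid and cystine carrier of the straight segment, went from 326, 276 and 378 to 116, 89.4 and 58.1 FPKM in WT and from 336, 432 and 374 to 15.3, 9.71 and 5.18 in kidneys labelled Tet2-/- (log2 interaction -3.49, SE 0.48, edgeR adjusted p = 0.00381). It fell in both genotypes, and the lowest WT IR library was above the highest Tet2-/- IR library. Slc17a3, an organic anion transporter, was at 88.3, 97.2 and 83.5 FPKM in WT IR and 45.4, 37.7 and 34.7 in Tet2-/- IR libraries (log2 interaction -1.46, SE 0.21, edgeR adjusted p = 0.00446). Slc34a1, the main phosphate transporter, had an interaction of -1.81 (edgeR adjusted p = 0.0117), Lrp2, the endocytic receptor megalin, one of -1.59 (edgeR adjusted p = 0.0278), Cubn, its partner cubilin, one of -1.66 (edgeR adjusted p = 0.0118), and Aqp1, the water channel of the proximal tubule, one of -2.28 (edgeR adjusted p = 0.0126). Slc34a1 was at 760, 477 and 716 FPKM in WT IR and 228, 188 and 214 FPKM in Tet2-/- IR libraries. Outside the list, Slc22a2, the organic cation transporter Oct2, was at 168, 143 and 128 and 70.0, 51.5 and 54 FPKM in these groups (log2 interaction -1.89, SE 0.23, edgeR adjusted p = 0.00381), and Slc6a20b, an imino acid transporter, at 51.7, 38.3 and 33.8 and 7.42, 8.58 and 6.53 FPKM (-2.51, SE 0.29, edgeR adjusted p = 0.00381). Slc22a19, Slc22a28 and Slc22a30 belong to a family of close copies, so their counts depend on how shared reads were placed. Of the 19 calls, 14 held in each of the 12 fits that left out a library. The count ran from 15 to 21 over these fits and was 0 without both WT baseline replicates 2 and 3.

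Amino acid catabolism, which the proximal tubule carries out in mitochondria and peroxisomes, gave the same direction. Of 54 genes tested, 24 were negative and 0 positive, with a median of -1.25. In kidneys labelled Tet2-/- 42 fell and in WT 5 did, beside 20.5% and 2.43% of all genes tested. Haao, a dioxygenase of the kynurenine route from tryptophan to NAD, was at 197, 220.2 and 156 FPKM in WT baseline, 205, 223 and 246 in Tet2-/- baseline, 173, 107 and 101 in WT IR and 37.3, 41 and 31.6 in Tet2-/- IR libraries (log2 interaction -2.19, SE 0.27, edgeR adjusted p = 0.00381). Ido2 at the entry of that route had -4.23 (edgeR adjusted p = 0.00549) and Afmid, its formamidase, -1.31 (edgeR adjusted p = 0.00913). Hgd, of tyrosine breakdown, did not pass in WT (-0.09 on the log2 scale) and fell by 1.92 in kidneys labelled Tet2-/- (log2 interaction -1.83, SE 0.25, edgeR adjusted p = 0.00381). The transsulfuration enzymes Cbs and Cth had -1.81 (edgeR adjusted p = 0.00381) and -2.09 (edgeR adjusted p = 0.00559). Pipox, a peroxisomal oxidase of pipecolic acid and sarcosine, had -1.83 (SE 0.28, edgeR adjusted p = 0.00503). Uroc1, urocanase of histidine breakdown, was at 29.3, 6.68 and 7.05 FPKM in WT IR and 0.622, 0.926 and 0.141 in Tet2-/- IR libraries (log2 interaction -4.88, SE 0.86, edgeR adjusted p = 0.00878), with WT IR replicate 1 far above the other WT IR libraries. Gamt, which makes creatine, had -3.20 (edgeR adjusted p = 0.00613). Of the 24 calls, 14 held in each fit that left out a library, and the count was lowest, 15, without WT IR replicate 1. It was 0 without both WT baseline replicates 2 and 3.

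Fructose and glucose handling genes had 9 negative and 0 positive of 22, with a median of -1.21. Slc2a5, the fructose transporter Glut5, was at 31.4, 7.63 and 14.3 FPKM in WT IR and 1.44, 2.19 and 2.18 in Tet2-/- IR libraries, from 22.5, 14.4 and 18.2 and 24, 17.1 and 16.1 at baseline (log2 interaction -3.40, SE 0.58, edgeR adjusted p = 0.00790). Khk, the kinase that traps fructose, had -1.88 (edgeR adjusted p = 0.0312), Sord, which makes fructose from sorbitol, -1.76 (SE 0.29, edgeR adjusted p = 0.00683), Glyctk, glycerate kinase, -1.71 (SE 0.26, edgeR adjusted p = 0.00499), and Gk, glycerol kinase, -2.30 (SE 0.40, edgeR adjusted p = 0.00805). Of the 9 fructose and glucose genes, 5 held in each fit that left out a library, Khk not among them. The count was 5 without WT baseline replicate 3 or Tet2-/- baseline replicate 1 and 0 without both WT baseline replicates 2 and 3. The fatty acid oxidation list had 5 negative and 1 positive of 38 and a median of -0.39. Its negative count was 9 without Tet2-/- IR replicate 1 and 0 without both WT baseline replicates 2 and 3. Acadm, the medium-chain acyl-CoA dehydrogenase, was at 459.6, 474 and 647 FPKM in WT baseline, 777, 738 and 562 in Tet2-/- baseline, 508, 419 and 383 in WT IR and 181, 120.0 and 113 in Tet2-/- IR libraries (log2 interaction -2.20, SE 0.33, edgeR adjusted p = 0.00503). Acox2, a peroxisomal oxidase of branched chains, was at 90.6, 42.2 and 36.5 and 7.11, 8.89 and 3.23 FPKM after IR (log2 interaction -3.93, SE 0.50, edgeR adjusted p = 0.00381), and Bdh1, which interconverts the ketone bodies, had -1.90 (SE 0.30, edgeR adjusted p = 0.00616). Etfa and Etfb, the subunits that pass electrons from these oxidations to the respiratory chain, had -1.02 and -1.28 (edgeR adjusted p = 0.0283 and 0.0183). The positive member was Pdk4, the kinase that shuts pyruvate out of the citric acid cycle, with 3.46 (edgeR adjusted p = 0.0462). The calls of Pdk4 and Etfa did not hold in each fit that left out a library, and those of Acadm, Acox2, Bdh1 and Etfb did.

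**Figure D4:**
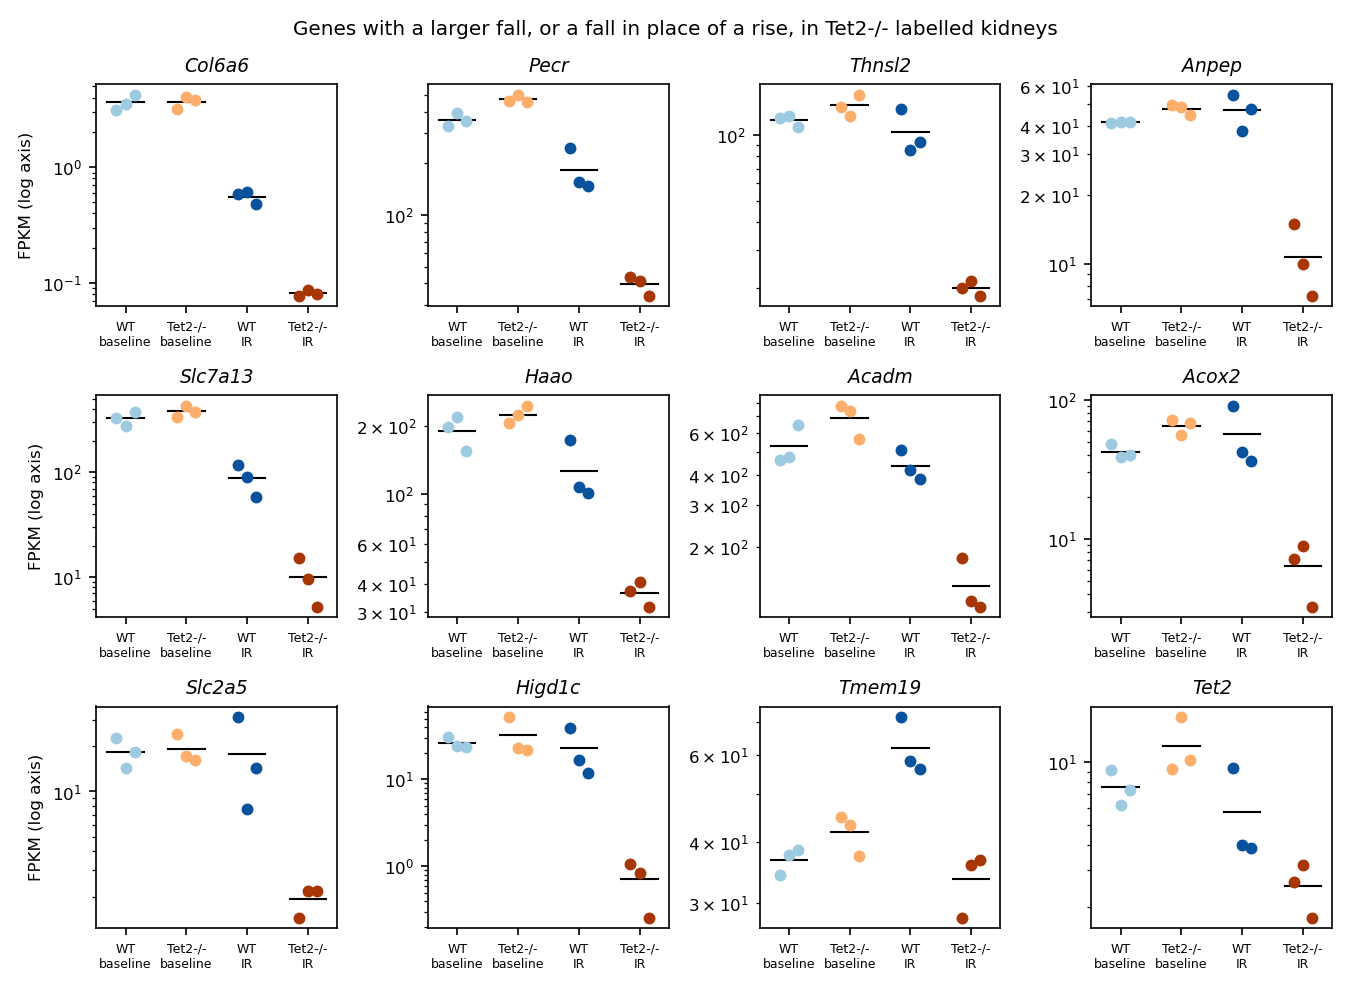
FPKM on a log axis in each library (points) and the group mean (line) for 12 genes with a negative interaction. In each panel the 3 Tet2-/- IR libraries lie below the 3 WT IR libraries. Of all genes tested, 14.4% did so.

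The 3 smallest adjusted p values of all genes tested were those of negative interactions. Col6a6 (mm9 chr9:105591747-105730415), a chain of collagen VI, was at 3.14, 3.51 and 4.24 FPKM in WT baseline, 3.21, 4.03 and 3.84 in Tet2-/- baseline, 0.588, 0.606 and 0.479 in WT IR and 0.077, 0.087 and 0.08 in Tet2-/- IR libraries (log2 interaction -2.95, SE 0.22, edgeR adjusted p = 0.000406). The baseline ranges overlapped, and the fall was 2.77 on the log2 scale in WT and 5.72 in kidneys labelled Tet2-/-. It was the one named gene whose call held in all 29 alternatives. Thnsl2 (mm9 chr6:71078160-71094374), a threonine synthase-like enzyme, was at 131, 85.1 and 92.4 FPKM in WT IR and 20.0, 21.6 and 18.4 in Tet2-/- IR libraries (log2 interaction -2.75, SE 0.22, edgeR adjusted p = 0.000525). Pecr (mm9 chr1:72305747-72330888), a peroxisomal enoyl-CoA reductase, was at 331, 395 and 352 FPKM in WT baseline, 462, 504 and 458 in Tet2-/- baseline, 245, 156 and 148 in WT IR and 43.6, 41.3 and 33.6 in Tet2-/- IR libraries (log2 interaction -2.76, SE 0.25, edgeR adjusted p = 0.00125). The largest negative values among called genes were those of A4gnt (-6.46), Car5a (-5.83), Slc7a12 (-5.77), Higd1c (-5.43), Serpina6 (-5.05), Methig1 (-4.89), Uroc1 (-4.88) and Ceacam2 (-4.77). Higd1c, a mitochondrial protein of the hypoxia-induced domain family, was at 39.4, 16.5 and 12 FPKM in WT IR and 1.06, 0.831 and 0.254 in Tet2-/- IR libraries (edgeR adjusted p = 0.00381). A4gnt, a glycosyltransferase of mucin sugars, was at 8.74, 2.42 and 1.55 and 0.041, 0.114 and 0.046 FPKM in these groups (edgeR adjusted p = 0.00381). A4gnt, Car5a, Slc7a12, Uroc1 and Ceacam2 were highest in WT IR replicate 1, and Slc7a12 lost its call in 9 and Serpina6 in 8 of the 12 fits that left out a library. Methig1 overlaps a close relative, so its count depends on how shared reads were placed.

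The largest positive values were mostly those of fat cell genes. By the rule the 8 largest were Ucp1 (11.07), Plin1 (10.74), Retn (10.36), Hp (10.16), Cidea (9.31), Saa3 (8.70), Adig (8.05) and Mrap (7.75), and for Ucp1 and Saa3, each with a group at the floor, the fitted value depends on the prior count. Plin1, which coats the lipid droplet, was at 0.024, 0.671 and 4.82 FPKM in WT baseline, 0.042, 0.003 and 0.011 in Tet2-/- baseline, 0.064, 0.094 and 0.087 in WT IR and 0.343, 0.008 and 3.67 in Tet2-/- IR libraries. Its high libraries were those with Adipoq, 2 in the WT baseline and 1 in the Tet2-/- IR group. Both of these groups enter the interaction with a positive sign. Without these 3 libraries the interaction of Plin1 was 1.41 and that of Cidea -1.29, and neither was called. With the replicate block Retn (8.10), Cidea (7.87) and Mrap (5.77) lost their calls (edgeR adjusted p = 0.0628, 0.0556 and 0.0560). The adipocyte list had 5 positive members of 19, of which 0 held in each fit that left out a library.

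Few genes responded in opposite directions. Of the 3 genes that fell in WT and rose in kidneys labelled Tet2-/-, Pim1 and Vcan reached a group mean of 1 FPKM. Vcan, a matrix proteoglycan, was at 0.749, 3.56 and 0.756 FPKM in WT baseline, 0.046, 0.099 and 0.029 in Tet2-/- baseline, 0.115, 0.294 and 0.037 in WT IR and 0.356, 0.875 and 0.197 in Tet2-/- IR libraries (log2 interaction 6.33, SE 1.21, edgeR adjusted p = 0.0116). WT baseline replicate 2, the library with the most urothelial transcripts, was the highest, and the IR ranges overlapped. Tmem19, a membrane protein with little known of its role, rose in WT and fell in kidneys labelled Tet2-/-. It was at 34.1, 37.6 and 38.5 FPKM in WT baseline and 71.9, 58.3 and 56.2 in WT IR libraries, and at 45, 43.2 and 37.3 in Tet2-/- baseline and 27.9, 35.9 and 36.7 in Tet2-/- IR libraries (log2 interaction -1.22, SE 0.20, edgeR adjusted p = 0.00683). The WT IR libraries lay above all other groups. Another 17 genes rose in WT with a negative interaction and did not pass in kidneys labelled Tet2-/-. Among these Tmem52 was at 4.12, 4.21 and 4.02 FPKM in WT baseline, 14.2, 11.2 and 17.7 in WT IR, 5.29, 5.38 and 4.33 in Tet2-/- baseline and 6.69, 7.15 and 6.45 in Tet2-/- IR libraries (log2 interaction -1.54, SE 0.28, edgeR adjusted p = 0.00949). Ces2e, a carboxylesterase from a family of close copies, and Tmem106a, a protein of macrophage membranes, showed the same order, with -1.82 (SE 0.30, edgeR adjusted p = 0.00712) and -0.96 (SE 0.19, edgeR adjusted p = 0.0129). Ihh, a hedgehog ligand, rose in both genotypes and less in kidneys labelled Tet2-/-. Its baseline FPKM was 5.24, 5.22 and 4.73 in WT and 8.87, 7.75 and 8.03 in libraries labelled Tet2-/-, and its IR ranges overlapped (log2 interaction -0.96, SE 0.23, edgeR adjusted p = 0.0290). Its call was lost in 7 of the 12 fits that left out a library. Conversely, 10 genes fell in WT with a positive interaction and did not pass in kidneys labelled Tet2-/-. Hipk1, a nuclear kinase, was at 15.1, 16.3 and 16.3 FPKM in WT baseline and between 9.15 and 15.5 in the other groups (log2 interaction 0.88, SE 0.18, edgeR adjusted p = 0.0136), and Twsg1, a modulator of BMP signalling, had 0.95 (SE 0.22, edgeR adjusted p = 0.0253), a call lost in 5 of the 12 fits that left out a library.

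Tight and adherens junction genes, a theme of the study, had 7 positive and 1 negative of 43, with a median of 0.43. The positive members included Pvrl2, Tjp1, Cdh1, Cldn1, Cldn4 and Vcl. Tjp1, the scaffold protein ZO-1, was at 5.02, 6.23 and 5.11 FPKM in WT baseline, 3.74, 3.71 and 3.28 in Tet2-/- baseline, 5.08, 6.71 and 3.72 in WT IR and 10.0, 8.29 and 5.99 in Tet2-/- IR libraries (log2 interaction 1.11, SE 0.28, edgeR adjusted p = 0.0325). The Tet2-/- libraries were below WT at baseline, and the IR ranges overlapped. The call was lost in 9 of the 12 fits that left out a library. Pvrl2 (nectin 2), an adhesion molecule of adherens junctions, had a baseline difference of -0.06 on the log2 scale and was at 8.62, 12.2 and 8.13 FPKM in WT IR and 22.3, 23.4 and 19.1 in Tet2-/- IR libraries (log2 interaction 1.13, SE 0.20, edgeR adjusted p = 0.00922). Cldn4, a claudin of the collecting duct that injured tubules also express, was at 15, 62.2 and 16.1 and 99.8, 109.9 and 140.0 FPKM in these groups (log2 interaction 2.96, SE 0.79, edgeR adjusted p = 0.0401), a call lost in 9 of the 12 fits that left out a library. The negative member was Cldn10, a claudin of cation and anion pores in the thick ascending limb and proximal tubule, at 80.5, 73.3 and 64.7 and 22.6, 35.6 and 19.1 FPKM (log2 interaction -1.60, SE 0.25, edgeR adjusted p = 0.00557). Cldn8, a claudin of the distal tubule and collecting duct, was not called (0.34, SE 0.45, edgeR adjusted p = 0.669), and its sign turned without Tet2-/- IR replicate 2. The list had 1 positive gene without any 1 of WT baseline replicate 3, Tet2-/- baseline replicates 2 and 3 and WT IR replicates 1 and 3, 2 without WT baseline replicate 2 or Tet2-/- IR replicate 1, 3 without Tet2-/- baseline replicate 1 or Tet2-/- IR replicate 2, and 11 without WT IR replicate 2. It had 0 without both WT baseline replicates 2 and 3.

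Over all genes tested 3.79% were positive and 5.39% negative, against which the small lists of the other nephron segments can be read. The thick ascending limb list had 1 negative of 17 (Cldn10) and a median of -0.71. Its summed level was 2533 and 2964 FPKM in Tet2-/- IR replicates 1 and 2 and 556 FPKM in replicate 3, the lowest of the 12 libraries. Umod, the main protein of urine, made up 48.6% to 84.8% of the sum in the 12 libraries. Without it the sum was 514, 451 and 201 FPKM in Tet2-/- IR libraries and 810, 591 and 631 FPKM in WT IR libraries, and the groups did not overlap. The distal convoluted tubule list had 0 calls of 16, the intercalated cell list 1 negative of 19 (Slc4a1, the anion exchanger, -2.58, edgeR adjusted p = 0.0393, lost in 9 of the 12 fits that left out a library) and the collecting duct list 2 positive of 18, Cldn4 among them. Glomerular podocyte genes had 3 positive of 20 (Cd2ap, Thsd7a and Synpo) and a median of 1.37, and none of the 3 held in each fit that left out a library. Endothelial genes had 2 positive of 25, Plat, the tissue plasminogen activator (3.42, SE 0.69, edgeR adjusted p = 0.0143), and Sele, the selectin of activated endothelium, at or below 0.192 FPKM in every library. Among genes known as higher in male mouse kidneys 4 of 13 were negative (Slc22a30, Slc7a13, Slc22a12 and Cyp7b1), and among those higher in females 2 of 7 were negative (Slc22a19 and Slc7a12) and 1 positive (Abcc3). The 5 Y-linked and Xist genes had 0 calls. Beside the fat cell genes, whose 5 calls are given with their values, the lists of other sources had 1 of 11 skeletal muscle genes (Tnni2), 0 of 5 adrenal genes, 1 of 8 red blood cell genes (Slc4a1) and 1 of 11 urothelial genes (Krt5). Of 76 cytosolic ribosomal protein genes 0 were called, with a median of 0.17.

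**Figure D5:**
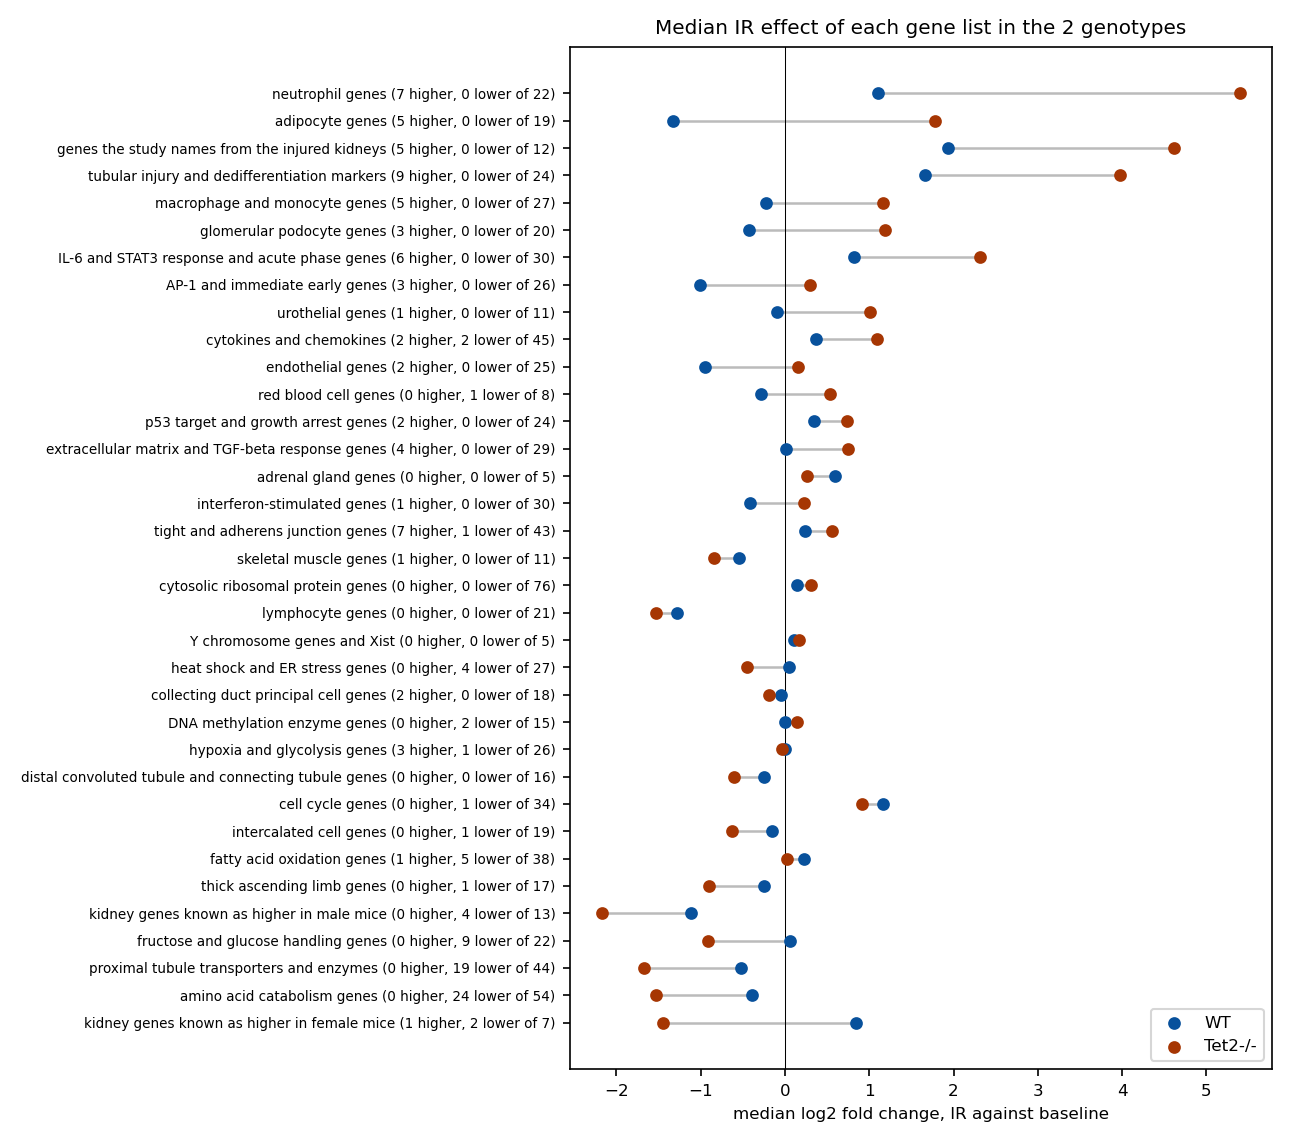
Median log2 fold change of IR against baseline over the tested members of each gene list in WT kidneys (blue) and kidneys labelled Tet2-/- (brown), with the number of members whose interaction was called. Lists run from the highest median interaction (neutrophil genes, 3.32) at the top to the lowest (7 genes known as higher in female kidneys, -2.16) at the bottom.

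Of 15 DNA methylation enzyme genes, 2 were negative and 0 positive. Tet2 itself was one of them. It was at 9.34, 3.97 and 3.86 FPKM in WT IR and 2.64, 3.20 and 1.76 in Tet2-/- IR libraries, a log2 IR effect of -0.49 in WT that did not pass and of -2.49 in libraries labelled Tet2-/- (log2 interaction -2.00, SE 0.48, edgeR adjusted p = 0.0285). WT IR replicate 1 had the highest Tet2 of the IR libraries, the IR ranges did not overlap, and the call was lost in 4 of the 12 fits that left out a library. Tet3, a related dioxygenase, was at 2.09, 2.18 and 1.80 FPKM in WT IR and 2.69, 2.67 and 2.58 in Tet2-/- IR libraries, and its interaction of 0.49 did not pass (SE 0.14, edgeR adjusted p = 0.0567). Tet1 was at most 0.136 FPKM in any library. The other called member was Idh2, the mitochondrial enzyme that makes the 2-oxoglutarate these dioxygenases need, at 195, 155 and 150.1 FPKM in WT IR and 111, 108 and 101 in Tet2-/- IR libraries (log2 interaction -0.74, SE 0.21, edgeR adjusted p = 0.0463). It lost its call in 11 of the 12 fits that left out a library and with the replicate block (-0.74, edgeR adjusted p = 0.0526).

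Promoter windows of the called genes were described with no test. RefSeq windows on GRCm38.p6, from 250 bases before to 50 bases after each start site, were found for 473 of the 634 positive and 689 of the 902 negative genes. The AP-1 letters TGANTCA, read on both strands, were in 7.03% of the 626 windows of positive genes, 5.45% of the 880 windows of negative genes and 5.82% of windows of all genes tested. The STAT letters TTCNNNGAA were in 7.83%, 7.50% and 7.22%, the HNF4 letters CAAAGTCCA in 1.12%, 1.25% and 0.462%, and the NF-kB motif in 1.28%, 1.14% and 1.30%. The HNF4 letters were in 7 windows of positive genes, 11 of negative genes and 72 of all genes tested. The HNF1 motif was in 0 windows of called genes. It was in 10 of the 15576 windows of all genes tested (0.064%), so the 0 cannot be read as a lack. Overlaps between motifs were not counted. Of all 32851 windows of this length, 7.81% held the AP-1, 8.30% the STAT and 0.475% the HNF4 letters. The windows of 3 named genes that hold such letters are given as examples from 3 of the lists, 5′ to 3′ on the gene's strand with the letters in capitals: Il1r2 of the neutrophil list (STAT letters, chr1:40085843-40086142, plus strand), Cldn4 of the junction list (AP-1 letters at 2 places, chr5:134946885-134947184, minus strand) and Pipox of the amino acid catabolism list (HNF4 letters, read on the opposite strand, chr11:77893823-77894122, minus strand).
Il1r2: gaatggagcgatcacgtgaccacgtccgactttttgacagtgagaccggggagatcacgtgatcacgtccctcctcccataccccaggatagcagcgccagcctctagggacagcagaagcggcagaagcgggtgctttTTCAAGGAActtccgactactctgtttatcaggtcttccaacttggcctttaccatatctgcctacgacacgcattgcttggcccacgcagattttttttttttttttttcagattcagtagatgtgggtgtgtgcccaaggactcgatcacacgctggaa
Cldn4: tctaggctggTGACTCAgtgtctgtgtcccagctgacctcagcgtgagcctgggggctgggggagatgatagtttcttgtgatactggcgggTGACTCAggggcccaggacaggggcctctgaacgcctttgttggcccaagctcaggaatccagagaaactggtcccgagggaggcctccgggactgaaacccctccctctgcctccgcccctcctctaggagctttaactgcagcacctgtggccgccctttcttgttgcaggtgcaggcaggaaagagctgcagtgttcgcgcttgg
Pipox: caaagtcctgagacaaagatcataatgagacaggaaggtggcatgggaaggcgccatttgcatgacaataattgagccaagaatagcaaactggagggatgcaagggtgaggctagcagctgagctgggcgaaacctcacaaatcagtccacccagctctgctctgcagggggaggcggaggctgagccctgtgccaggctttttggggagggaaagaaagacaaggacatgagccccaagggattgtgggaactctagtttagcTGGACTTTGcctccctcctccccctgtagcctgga
In these windows the letters start at position -111 from the start site in Il1r2, at -240 and -158 in Cldn4 and at 16 in Pipox. Whether a factor binds there was not measured.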

How the data were processed

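RNA-seq libraries were made from whole kidneys of 12 mice, 3 per group. The authors aligned reads with STAR to mm9, counted RefSeq transcripts with HOMER and tested with edgeR, in versions not given in the sources used here. The deposited expected counts came in steps of 0.5 and were rounded to whole numbers. The deposited FPKM values, scaled to transcript length and library depth, were used for levels. Both columns of each library were mapped by its title.

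Each symbol was represented by its transcript with the highest total. The counts of all 12 libraries were fitted with edgeR 4.0.16 in R 4.3.3 (TMM, the default filter for low counts, quasi-likelihood test, Benjamini-Hochberg adjustment over 16741 genes), with a term for each group and the interaction as a contrast. The script was tested on simulated data. Alternatives used DESeq2 1.42.0, limma 3.58.1, other scalings, filters and pseudocounts of 1 and 0.1, replicate blocks, and 1 library left out in turn. The fit without both WT baseline libraries with fat cell genes was planned from earlier results of these data, and the other fits without several libraries were chosen after seeing the data.

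Named genes were the Tet and study genes, the 8 largest interactions in each direction among genes whose mean reached 1 FPKM in some group, the 3 genes of smallest adjusted p in each response class (5 for opposite directions), and up to 4 called members of each list. Some genes these rules name are not reported here. Further members of lists were named after their values were seen. The genes and 34 lists were chosen with earlier results of these data known. A count of 3 per library was the floor.

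The labels number replicates 1 to 3 in every group. Same-numbered baseline and IR libraries deviated together in WT (r = 0.35, 0.35 and 0.34) and in libraries labelled Tet2-/- (r = 0.12, 0.35 and 0.20). Across genotypes, same-numbered IR libraries had r = -0.00023, 0.21 and 0.30, and baseline libraries -0.17, -0.15 and 0.05. Differently numbered IR libraries of the 2 genotypes reached 0.23. The replicate block treated the numbers as pairs within a genotype, although the mice differ. SEs were computed as the size of the log2 value divided by the square root of its edgeR F statistic. They therefore include the spread between mice, whereas the floor covers counting error only.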

Additional observations from a re-analysis of the deposited data

Results flagged for a closer look

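The 50 genes here were those named by the rules for study genes, largest values and response classes whose IR effect differed between the genotypes by the interaction test itself in edgeR. Values are log2 interactions. Positive values were those of Ccl6 (3.70), Cd14 (2.35), S100a8 (3.70), S100a9 (3.41), Lcn2 (2.99), Tjp1 (1.11), Ucp1 (11.07), Plin1 (10.74), Retn (10.36), Hp (10.16), Cidea (9.31), Saa3 (8.70), Adig (8.05), Mrap (7.75), Hipk1 (0.88), Myzap (2.13), Twsg1 (0.95), Pim1 (2.16), Vcan (6.33), Map4k5 (0.72), Slc8b1 (1.10), Lox (2.59), Il1r2 (5.25), Hmga2-ps1 (2.80), Ahnak (1.60), Serpina3n (4.55) and Tubb6 (1.52). Negative values were those of Tet2 (-2.00), A4gnt (-6.46), Car5a (-5.83), Slc7a12 (-5.77), Higd1c (-5.43), Serpina6 (-5.05), Methig1 (-4.89), Uroc1 (-4.88), Ceacam2 (-4.77), Col6a6 (-2.95), Pecr (-2.76), Slc22a28 (-2.49), Thnsl2 (-2.75), Slc6a20b (-2.51), Slc22a2 (-1.89), Igfals (-1.78), Reep6 (-3.00), Gas6 (-0.94), Tmem19 (-1.22), Ces2e (-1.82), Tmem52 (-1.54), Tmem106a (-0.96) and Ihh (-0.96). Retn, Cidea, Plin1, Adig, Mrap, Ucp1 and Hp were high in libraries that also carried other fat cell transcripts, and the part of those cells in their values was not tested. Hmga2-ps1 is a pseudogene whose counts may hold reads of a related gene. With 1 library left out, 26 of the 50 kept their call in each of the 12 fits. The call was lost in 1 fit for Ccl6, 3 for Myzap, 4 for Tet2, Hp and Igfals, 5 for Cd14 and Twsg1, 6 for Ucp1, 7 for S100a9, Gas6 and Ihh, 8 for Plin1, Retn, Mrap, Slc8b1, Serpina6 and Reep6, 9 for Tjp1, Map4k5, Lox and Slc7a12, and 10 for Lcn2, Cidea and Adig.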

How the results depend on the processing

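Against 634 positive and 902 negative genes, DESeq2 called 1222 and 1592, library sizes alone 1129 and 700, limma on log2(FPKM + 1) 1069 and 596, limma on log2(FPKM + 0.1) 1126 and 681, the replicate block within genotype 1024 and 1077, an unadjusted p under 0.05 2449 and 2102, and all deposited transcripts 865 and 1624. The share of negative calls, 58.7%, was 38.3%, 35.8% and 37.7% with library sizes and the FPKM scales. Leaving out 1 library gave 147 to 980 positive and 485 to 1064 negative genes. The positive count moved by over 1.5 times without any 1 of the libraries other than Tet2-/- IR replicates 2 and 3, and the negative count without Tet2-/- baseline replicate 1 or 3 or WT IR replicate 1 or 3. Without both WT baseline libraries with fat cell genes edgeR called 2 and 8 (3009 at an unadjusted p under 0.05), without the 3 libraries with fat cell genes 0 and 3 (3700), and without WT IR replicate 1 and both WT baseline libraries 2 and 6 (2542). These settings leave a group with 1 library, which is assumed to vary like the others. The share of positive genes that rose past the threshold in libraries labelled Tet2-/- only, 85.2%, was 74.8% with DESeq2, 80.8% with limma on log2(FPKM + 0.1), 74.7% and 79.8% with the blocks within genotype and over all groups, 74.0% at an unadjusted p, 80.5% with all transcripts and 100% in both settings that left calls after dropping the WT baseline libraries, and ran from 72.6% to 91.9% with 1 library left out. The matching share of negative genes, 84.9%, was 78.4% with DESeq2, 79.0% and 81.8% with the blocks, 81.5% at an unadjusted p, 87.8% with all transcripts, and 75%, 33.3% and 50% in the 3 settings that dropped several libraries, and ran from 76.7% to 94.7% with 1 library left out. The sign of Tet1 turned with library sizes (0.00296), with limma on log2(FPKM + 1) (0.000442) and without Tet2-/- IR replicate 1 (0.012) or 3 (0.021), with a range of -0.63 to 0.021 with 1 library left out. That of Cldn8 turned without Tet2-/- IR replicate 2 (range with 1 library left out -0.094 to 0.64), without both WT baseline libraries (-0.20) and without these and WT IR replicate 1 (-0.33), and that of Cidea without the 3 libraries with fat cell genes (-1.29). Why these values moved was not tested. Beyond the genes given beside their results, the replicate block within genotype changed no call among named genes.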
